A study of Rattus norvegicus with 30 samples.

Results

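A set of 86 transcripts was over a fixed threshold in several kidneys of rats given mercury chloride (HgCl2) at the earlier of the study's times, 10 h. The threshold was 1.5 times the highest of the 5 vehicle libraries of 10 h, and a transcript had to be over it in at least 3 of the 10 HgCl2 libraries of that time, low and high dose together. Only transcripts with a mean of at least 5 CPM (estimated counts scaled so that the transcripts of a library have the same sum in every library) over all 30 libraries and a mean TPM (the same after division by effective length) under 1000 could enter. Of 40071 transcripts, 12842 met these level limits and are called the eligible transcripts below, so that the 86 were 0.67% of those that could have been chosen. The transcripts were thus chosen by their CPM at 10 h, and the values of that time are given here as a description, with no test. The libraries of 34 h had no part in the threshold, and the tests below were made on them. They did enter the mean over 30 libraries, although 78 of the 86 transcripts had a mean of 5 CPM or more in the vehicle libraries of 34 h alone. The others can have met that limit through HgCl2 libraries, those of 34 h included. For both doses together, the main values of 34 h are therefore also given for the 78.

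The study sequenced RNA from the kidneys of 30 Sprague-Dawley rats in 6 groups of 5. Rats received saline at 1 ml/kg as vehicle, HgCl2 at 0.25 mg/kg (low dose) or HgCl2 at 0.50 mg/kg (high dose), and kidneys were taken at 10 h or at 34 h, so that every kidney is a different animal. The sources used here give neither the age nor the sex of the animals. Each whole kidney was powdered before RNA isolation, so every value is an average over all cell types of the organ.

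Inorganic mercury is a classical kidney poison. It binds thiol groups of proteins and glutathione, is taken up mainly by cells of the proximal tubule, and injures the straight part of that tubule first. Injured tubule cells are known to make more stress and repair transcripts, among them those of metallothioneins, heme oxygenase and kidney injury molecule 1, and the extent of the injury often varies from animal to animal. Which of these genes, if any, were among the 86 transcripts was not analysed here, because 0 cells of the reference table held an Ensembl transcript ID and the files carry no gene symbols. Transcripts are therefore described by their length and by their values, and the tissue could not be checked against marker genes.

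Transcript totals were 20.2 to 39.1 M estimated counts per library, and genomic intervals held a further 5.82 to 9.23% of the counts. 4 libraries stood apart, counted by the eligible transcripts that lay more than 2-fold above or below every other library. High dose replicate 2 of 10 h had 63 such transcripts above and 32 below, high dose replicate 3 of 34 h had 79 above and 81 below, high dose replicate 4 of 34 h had 14 above and 392 below, and vehicle replicate 2 of 10 h had 56 above and 1 below. The other 26 libraries had at most 6 above and 12 below. At 10 h the groups carried separate runs of library numbers (31 to 35 for low dose, 36 to 40 for vehicle, 56 to 60 for high dose), so at that time a batch tied to the library number and the dose cannot be told apart.

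The 86 transcripts came mostly from the same few kidneys. Low dose replicates 1, 2 and 3 had 58, 74 and 78 of the 86 over the threshold, and high dose replicate 2 had 68. In the other 6 HgCl2 libraries the numbers were 5 in low dose replicate 4, 13 in low dose replicate 5, and 11, 6, 9 and 9 in high dose replicates 1, 3, 4 and 5. Of the 86, 71 were over the threshold in at least 3 of the 4 leading kidneys and 46 in all 4, and 54 were over it in none of the other 6. 3 of these 4 leading kidneys had the lower dose. By the rule's own count, 30 transcripts were over the threshold in 3 HgCl2 libraries, 44 in 4, 7 in 5 and 5 in 6. Sorted by the dose of those libraries, 51 transcripts formed a low dose class (at least 3 low dose and at most 1 high dose library), 3 a high dose class (at least 3 high dose and at most 1 low dose library), and the remaining 32 a mixed class.

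The median over the 86 transcripts divided the animals of 10 h alike, which follows in part from the choice of the transcripts by these values. Expressed as the log2 difference from the median vehicle library of the same time, on the log2(CPM + 0.5) scale, it was 1.02, 1.18 and 1.37 in low dose replicates 1, 2 and 3 of 10 h, and -0.02 and 0.07 in replicates 4 and 5. In the high dose kidneys of 10 h it was 0.26, 1.59, 0.26, 0.12 and 0.10 in replicates 1 to 5. The 5 vehicle kidneys of 10 h ranged from -0.06 to 0.00, a range that is narrow by construction because their own median is the reference. In bulk tissue a change in the number of cells of a type and a change in RNA per cell cannot be told apart, and this holds for every value below. High dose replicate 2, the library with the highest median, was also over the threshold for 634 of all eligible transcripts, against 10 to 158 in the other 9 HgCl2 libraries. Without that library the rule gave 70 transcripts. The level limits kept all 30 libraries, so these could only come from the 86.

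**Figure D1:**
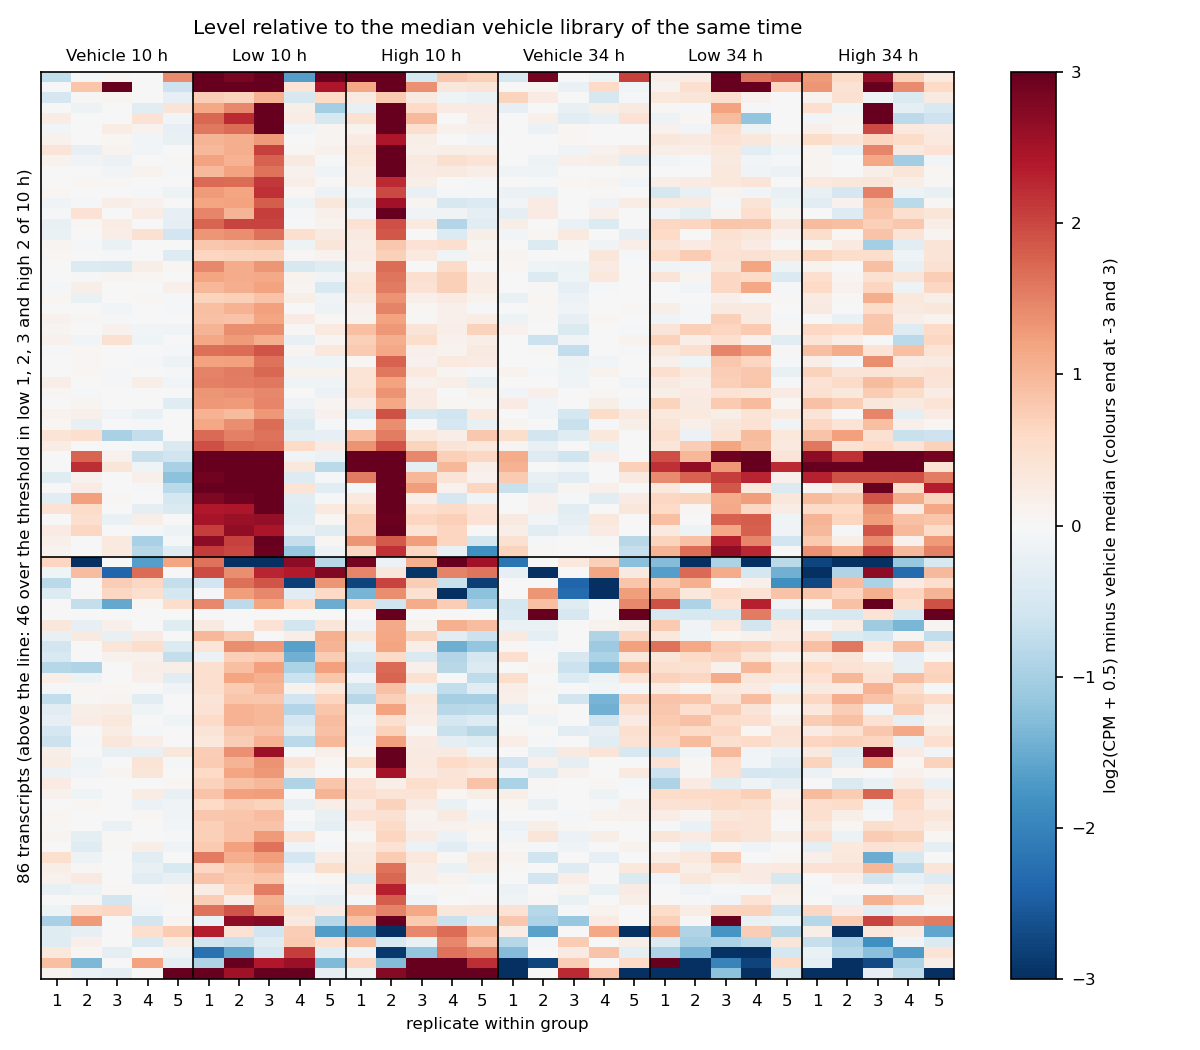
Level of each of the 86 transcripts (rows) in each of the 30 libraries (columns, by group and replicate), as the log2 difference of CPM + 0.5 from the median vehicle library of the same time, with red above and blue below. The 46 transcripts over the threshold in low dose replicates 1, 2 and 3 and high dose replicate 2 of 10 h lie above the horizontal line, and paler red fills most of their rows in the HgCl2 libraries of 34 h.

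The threshold lay within a continuous range of values. The CPM of the third-highest HgCl2 library, divided by the highest vehicle library of 10 h, was 1.5004 for the lowest of the 86 and 1.48 for the highest transcript left out. Between 1.5 and 1.6 lay 23 of the 86, and 40 transcripts left out had a ratio of 1.4 or more. The median ratio of the 86 was 1.97, and 42 had a ratio of 2 or more. For 1 transcript, ENSRNOT00000009556, the ratio compared values near 0, with under 3 estimated counts in the third-highest library.

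In length the 86 were close to the other transcripts. Their median was 2377 bases (range 471 to 11622), against 2356 for all eligible transcripts, and their median of mean TPM was 16.7 against 14.1. They differed in how their reads were assigned. kallisto, the authors' quantifier, divides a read that fits several transcripts among them, so whole counts in every library mark a transcript with no sign of divided reads. Of the 86, 24 (27.9%) had whole counts throughout, against 43.2% of the eligible transcripts. For the other 62, a value also depends on how reads were divided among related transcripts, and its part in the results was not tested. The 86 also varied more among untreated animals: the median SD of log2(CPM + 0.5) among the vehicle kidneys of 34 h was 0.27, against 0.14 for the eligible transcripts. An SD over 1 in those 5 kidneys was found for 9 of the 86 (10.5%) and for 0.802% of the eligible transcripts. None of these 9 had whole counts.

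ENSRNOT00000083829, a transcript of 1401 bases, was over the threshold in 6 of the 10 HgCl2 libraries of 10 h. With vehicle at 10 h it was at 2.44, 4.25, 4.58, 4.41 and 12.6 CPM, with the low dose at 105, 35.0, 82.2, 1.05 and 44.2 CPM, and with the high dose at 38.8, 81.1, 2.91, 8.16 and 7.58 CPM. The HgCl2 kidneys thus fell into 6 high ones and 4 within or below the vehicle range. ENSRNOT00000052231, of 689 bases, was over it in 6 as well but in other animals. Its level was 2.19, 0.0656, 0.944, 2.82 and 0.692 CPM with vehicle, 0.260, 17.1, 7.14, 8.04 and 0.0722 CPM with the low dose, and 1.75, 0.0910, 20.4, 45.7 and 6.26 CPM with the high dose. Of the 4 leading kidneys only low dose replicates 2 and 3 were high for this transcript, and neither transcript had whole counts.

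At 34 h the question was whether the transcripts chosen at 10 h stood above vehicle in other animals. For both doses together, 75 of the 86 (87.2%) had a fitted log2 fold change above 0 over vehicle, against 47.3% of the eligible transcripts, and their median was 0.39 against -0.01. With edgeR's quasi-likelihood test and Benjamini-Hochberg adjustment over 21112 transcripts, 0 of the 86 were called, the background was 0%, and the lowest adjusted p was 0.153. At an unadjusted p under 0.05, 39 of the 86 (45.3%) were higher and 3 were lower, against a background of 5.37% higher and 4.28% lower over all transcripts tested. Of the eligible transcripts alone, 6.24% were higher at that limit. limma voom with quality weights also called 0 with its adjusted p and had 39 higher at an unadjusted p under 0.05 (background 7.86%). DESeq2 called 12 of the 86 higher after adjustment (background 0.251%). Without high dose replicates 3 and 4, 69 of the 86 (80.2%) had a positive fold change, against 44.8% of the eligible transcripts. The median was then 0.34 against -0.02, and 39 were higher at an unadjusted p under 0.05 in edgeR (background 6.58%). With all libraries kept, 67 of the 78 transcripts at 5 CPM or more in the vehicle libraries of 34 h were positive, with a median of 0.36. The share of the eligible transcripts in that fit is the 47.3% given above. Of these 78, 34 were higher at an unadjusted p under 0.05 in edgeR (background 5.37%). The 15 kidneys of 34 h were other animals than those of 10 h, and 1 vehicle group served both doses, so the comparisons of the doses share their controls.

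**Figure D2:**
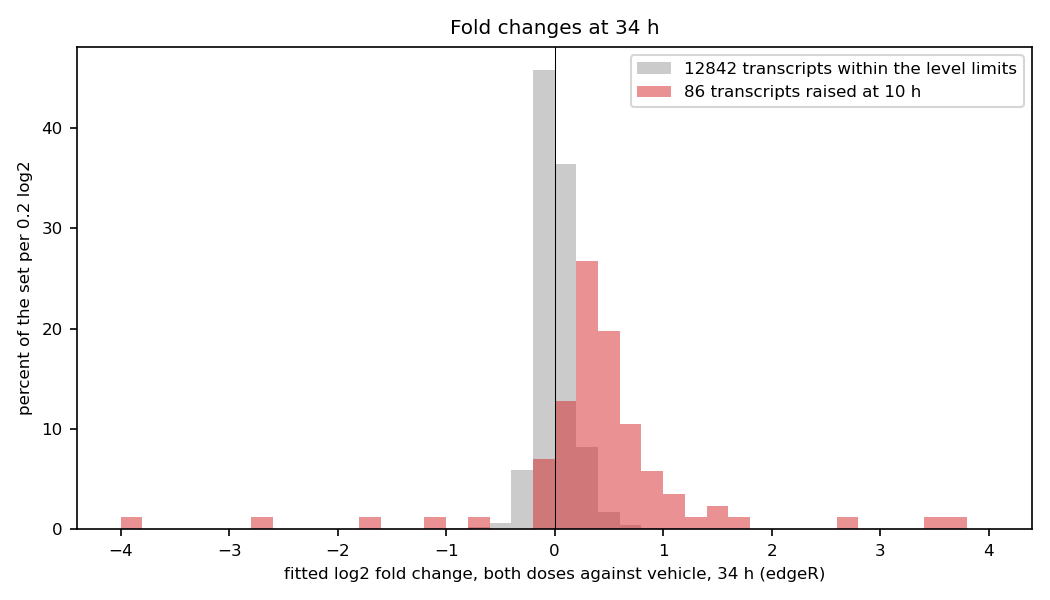
Distribution of fitted log2 fold changes at 34 h, both doses against vehicle, for the 86 transcripts (red) and the 12842 eligible transcripts (grey), as percent of each set per bin, with values past -4 or 4 drawn in the end bins. The red distribution has its median at 0.39 and the grey one at -0.01.

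With the high dose alone, 69 of the 86 (80.2%) had a positive log2 fold change, against 47.8% of the eligible transcripts, with a median of 0.42. edgeR called 0 (background 0%), with a lowest adjusted p of 0.0994, and 40 (46.5%) were higher at an unadjusted p under 0.05 against a background of 3.43%. 1 transcript was lower at that limit (background 2.08%). DESeq2 called 13 higher (background 0.142%), and limma voom called 0 and had 38 higher at an unadjusted p under 0.05 (background 4.96%). For 14 transcripts (16.3%) all 5 high dose kidneys lay above all 5 vehicle kidneys, which was so for 0.942% of the eligible transcripts, and for 0 transcripts did they all lie below (background 0.335%). Both libraries of 34 h that stood apart are in this group. Without them, 66 of the 86 (76.7%) were positive, against 47.1% of the eligible transcripts. The median was then 0.29 against -0.01, and 35 were higher at an unadjusted p under 0.05, against a background of 3.45%.

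With the low dose alone, 75 (87.2%) had a positive log2 fold change, against 45.4% of the eligible transcripts, with a median of 0.36. edgeR called 0 of the 86 (background 0.0284% higher and 0.00474% lower), with a lowest adjusted p of 0.177, and 32 (37.2%) were higher at an unadjusted p under 0.05 against a background of 6.9%. 2 transcripts were lower at that limit (background 7.39%). Of the eligible transcripts alone, 8.56% were higher at it. DESeq2 called 14 higher (background 1.12%), and limma voom called 0 (background 0.0142% higher) and had 31 higher at an unadjusted p under 0.05 (background 7.42%). In 9 transcripts (10.5%) all 5 low dose kidneys lay above all 5 vehicle kidneys, against 2.16% of the eligible transcripts, and in 0 did they all lie below (background 1.11%). One fit of all 30 libraries, which estimates the spread over both times, left fewer low p-values: 15 transcripts were higher at an unadjusted p under 0.05 with the high dose (background 4.84%) and 14 with the low dose (background 3.77%). The SD within the HgCl2 groups of 10 h, which enters that fit, had a median of 0.79 (low dose) and 0.89 (high dose) over the 86 transcripts, against 0.35 and 0.47 at 34 h. Those values of 10 h also served to choose the transcripts, so the spread in that fit is not independent of the choice.

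No transcript of the 86 was called between the doses at 34 h. In high against low dose, 50 of the 86 (58.1%) had a positive log2 fold change, against 52.5% of the eligible transcripts, with a median of 0.07. edgeR called 0 (background 0%) with a lowest adjusted p of 0.999, and 1 transcript was higher and 1 lower at an unadjusted p under 0.05, against backgrounds of 1.92% and 1.29%. DESeq2 called 0 of the 86 (background 0.0142% higher), and limma voom called 0 as well and had 1 higher at an unadjusted p under 0.05 (background 2.32%). Without high dose replicates 3 and 4 the median was -0.01, with 40 of the 86 (46.5%) above 0, against 50.0% of the eligible transcripts.

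The same comparison can be read animal by animal. The median over the 86 transcripts was 0.34, 0.20, 0.49, 0.39 and 0.02 in low dose replicates 1 to 5 of 34 h (mean 0.29 ± 0.18, SD, n = 5) and 0.39, 0.26, 0.74, 0.26 and 0.29 in high dose replicates 1 to 5 (mean 0.39 ± 0.20, SD, n = 5). For a reference that does not hold the kidney itself, each vehicle kidney of 34 h was set against the median of the other 4, which gave 0.04, -0.03, -0.10, 0.02 and 0.09. Low dose replicate 5 lay within that range and the other 9 HgCl2 kidneys above it. High dose replicate 3, the highest at 0.74, was also the library in which the median of all eligible transcripts was 0.14, whereas in the other HgCl2 libraries of 34 h that median lay between -0.04 and 0.04. Of the 86 transcripts, 65, 57, 74, 65 and 47 were above the vehicle median in low dose replicates 1 to 5 and 69, 63, 68, 55 and 69 in high dose replicates 1 to 5, or 54.7 to 86.05% of the 86. Of the eligible transcripts 42.6 to 68.0% were above it in the same kidneys. In the vehicle kidneys, each against the other 4, it was 29 to 57 of the 86 (33.7 to 66.3%), and in low dose replicate 5 the share of the 86 (54.7%) was below that of the eligible transcripts (59.0%).

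**Figure D3:**
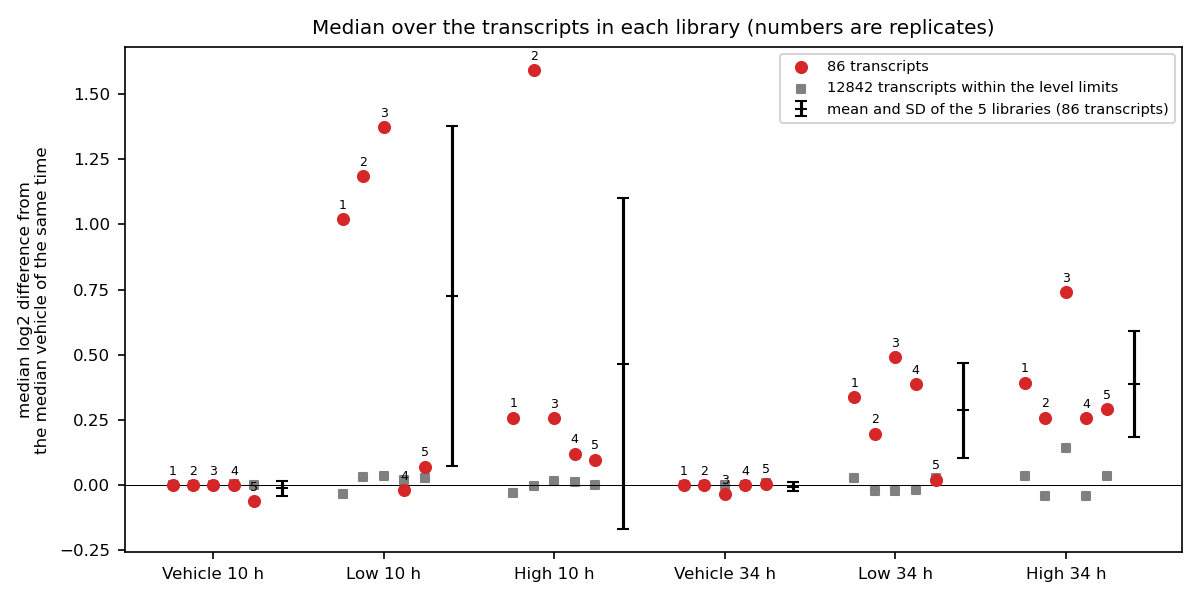
Median over the 86 transcripts (red circles) and over the 12842 eligible transcripts (grey squares) in each library, as the log2 difference of CPM + 0.5 from the median vehicle library of the same time, with replicate numbers and, in black, the mean and SD of the 5 libraries of a group for the 86. At 10 h the HgCl2 kidneys split into 4 at 1.02 to 1.59 and 6 at -0.02 to 0.26, and at 34 h they lie between 0.02 and 0.74. The vehicle points lie near 0 by construction, since their own median is the reference, and the values of 10 h served to choose the 86.

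Library numbers at 34 h mix vehicle and high dose, which allows the comparison within runs. Among numbers 41 to 45 (2 high dose and 3 vehicle kidneys) the median difference over the 86 transcripts was 0.37, with 71 (82.6%) above 0 against 52.0% of the eligible transcripts. Among numbers 51 to 55 (3 high dose and 2 vehicle kidneys) it was 0.40, with 69 (80.2%) above 0 against 53.8%. With the run as a term in the fit, edgeR called 0 and had 33 higher at an unadjusted p under 0.05 (background 2.71%). All low dose kidneys of 34 h hold the numbers 46 to 50, so for this dose such a batch and the treatment cannot be told apart.

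The rule of 10 h was also applied to the libraries of 34 h, with the vehicle kidneys of 34 h as reference. In at least 3 of the 10 HgCl2 kidneys of 34 h, 20 of the 86 (23.3%) were over 1.5 times the highest vehicle, against 0.335% of the eligible transcripts. These 20 made up 46.5% of the 43 transcripts that met the rule at 34 h. The 20 include transcripts with means of 2.61, 3.52, 4.63 and 4.999 CPM in the vehicle libraries of 34 h. Those are outside the 78 and can have met the limit of 5 CPM through HgCl2 libraries of 34 h. Of the 86, 32 were over that threshold in 0 HgCl2 kidneys of 34 h and 54 in at least 1, as were 6.78% of the eligible transcripts. Without high dose replicates 3 and 4 the rule of 34 h was met by 14 of the 86 (16.3%) and by 0.187% of the eligible transcripts. By kidney, the number of the 86 over the threshold was 7, 6, 24, 20 and 1 in low dose replicates 1 to 5 and 14, 9, 40, 13 and 9 in high dose replicates 1 to 5. Of all eligible transcripts, 42, 29, 47, 79 and 15 were over it in the same low dose kidneys and 31, 40, 675, 58 and 83 in the high dose kidneys.

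Of the 20 that met the rule at both times, 18 belonged to the 46 transcripts that had been over the threshold in all 4 leading kidneys of 10 h. That subset was chosen after values of 10 h had been seen, and its values are a description. Of the 46, 42 were among the 78 transcripts at 5 CPM or more in the vehicle libraries of 34 h. All 46 had a positive log2 fold change for both doses at 34 h, with a median of 0.42, and 29 of them were higher at an unadjusted p under 0.05. The shares to set beside these and the next counts are 47.3% of the eligible transcripts with a positive fold change and 5.37% of all transcripts tested at that p. Among the eligible transcripts the latter share was 6.24%. The 11 transcripts with a negative fold change were among the other 40, and 2 of the 11 had whole counts. By class, 50 of the 51 of the low dose class were positive at 34 h, with a median of 0.37. Of the 32 of the mixed class 25 were positive with a median of 0.44, and of the 3 of the high dose class 0 were positive, with log2 values of -1.67 to -0.05. Among the 24 transcripts with whole counts, 22 were positive, 14 were higher at an unadjusted p under 0.05, and the median was 0.39.

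Size at 10 h and size at 34 h went together within the 46. Across them, the difference of mean log2(CPM + 0.5) between the 10 HgCl2 and the 5 vehicle kidneys of 10 h and the fitted log2 fold change of 34 h had a Spearman rho of 0.63 and a Pearson r of 0.80. Across all 86 these were 0.36 and 0.38, and across the 12842 eligible transcripts -0.01 and -0.03. The times share no animals, but transcripts measured in the same libraries are not independent, and these values describe transcripts and not replicates. The differences of 10 h come from the same values that chose the 86 and then the 46. The coefficients of these sets and of the eligible transcripts therefore cannot be compared as like with like. The 46 also varied together between animals of a group: the median correlation of their pairs over the 15 libraries of 34 h, after the group means were subtracted, was 0.39, against 0.15 for the 86 and 0.08 for the eligible transcripts. It was 0.33 for the 46 without high dose replicates 3 and 4.

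**Figure D4:**
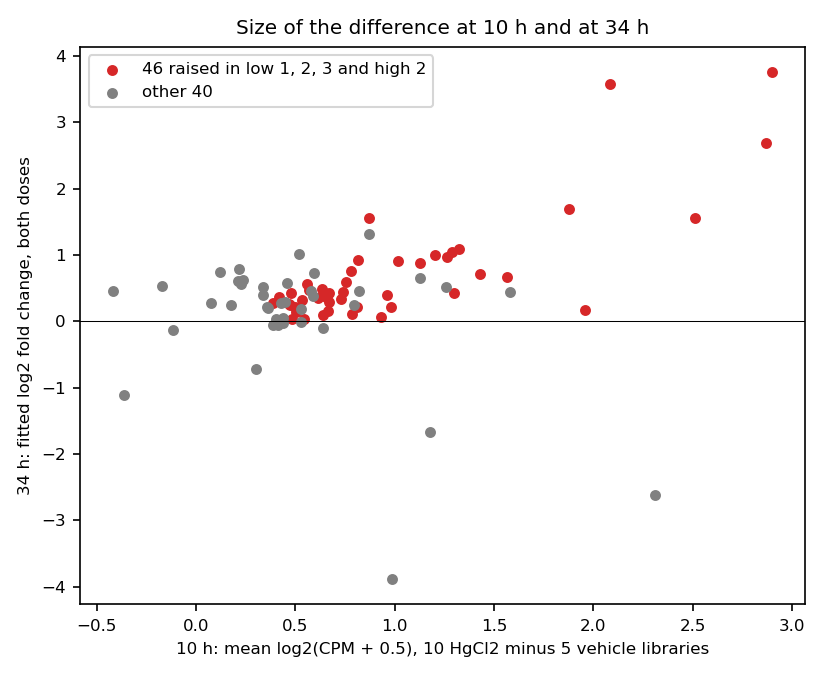
Difference at 10 h (mean log2(CPM + 0.5) of 10 HgCl2 kidneys minus that of 5 vehicle kidneys, x axis) and fitted log2 fold change at 34 h, both doses against vehicle (y axis), 1 point per transcript. The 46 transcripts over the threshold in all 4 leading kidneys (red) lie above 0 at 34 h, and the 11 points below 0 are among the other 40 (grey).

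3 of the 86 were over the threshold in at least 8 of the 10 HgCl2 kidneys of 34 h. They are described here because of those values and were chosen after they had been seen. The first, the longest of the 86 at 11622 bases, had whole counts in every library. In the vehicle kidneys of 34 h it was at 15.5, 7.51, 6.84, 8.81 and 10.8 CPM, in the low dose kidneys at 24.3, 31.0, 38.7, 45.0 and 9.83 CPM, and in the high dose kidneys at 45.6, 34.6, 34.3, 35.1 and 26.4 CPM. Low dose replicate 5 was within the vehicle range and the other 9 HgCl2 kidneys were above it. Its log2 fold change was 1.70 (SE 0.31) for both doses together, with an edgeR adjusted p of 0.153 and a DESeq2 adjusted p of 1.2e-05. The high dose alone gave 1.80 (SE 0.23) and an edgeR adjusted p of 0.0994. In edgeR its adjusted p was 0.0245 for both doses without low dose replicate 5 and 0.0159 for the high dose without vehicle replicate 1. The libraries left out there were its lowest HgCl2 kidney and its highest vehicle kidney of 34 h. Every other fit with 1 library left out gave no call for this transcript. At 10 h it had been at 4.55 to 12.8 CPM with vehicle and reached 87.4, 133 and 112 CPM in low dose replicates 1, 2 and 3 and 181 CPM in high dose replicate 2.

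The second, of 1761 bases, was at 49.1, 17.0, 14.6, 25.9 and 22.4 CPM with vehicle at 34 h, at 87.4, 45.2, 173, 324 and 29.5 CPM with the low dose and at 147, 104, 502, 189 and 166 CPM with the high dose. All high dose kidneys and low dose replicates 1, 3 and 4 were above the vehicle range. The fitted log2 difference for both doses was 2.69 (SE 0.59, adjusted p 0.323 in edgeR, DESeq2 adjusted p 0.00059). At 10 h its 4 leading kidneys had been at 1309 to 3598 CPM and the vehicle kidneys at 22.4 to 122 CPM.

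The third, of 1924 bases, was at 10.5, 4.82, 4.53, 4.79 and 8.20 CPM with vehicle, at 23.9, 33.1, 12.7, 230 and 24.8 CPM with the low dose and at 201, 105, 88.3, 80.9 and 6.59 CPM with the high dose. High dose replicate 5 was the only HgCl2 kidney within the vehicle range. For both doses the fitted log2 difference was 3.58 (SE 0.84, adjusted p 0.361 in edgeR, DESeq2 adjusted p 0.00051). Without that kidney the edgeR adjusted p of the high dose comparison was 0.0107, against 0.390 with it. Every other fit with 1 library left out gave no call for this transcript. The kidney within the vehicle range was low dose replicate 5 for the first of the 3 transcripts and high dose replicate 5 for the third, so the animals were not ordered alike in each.

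**Figure D5:**
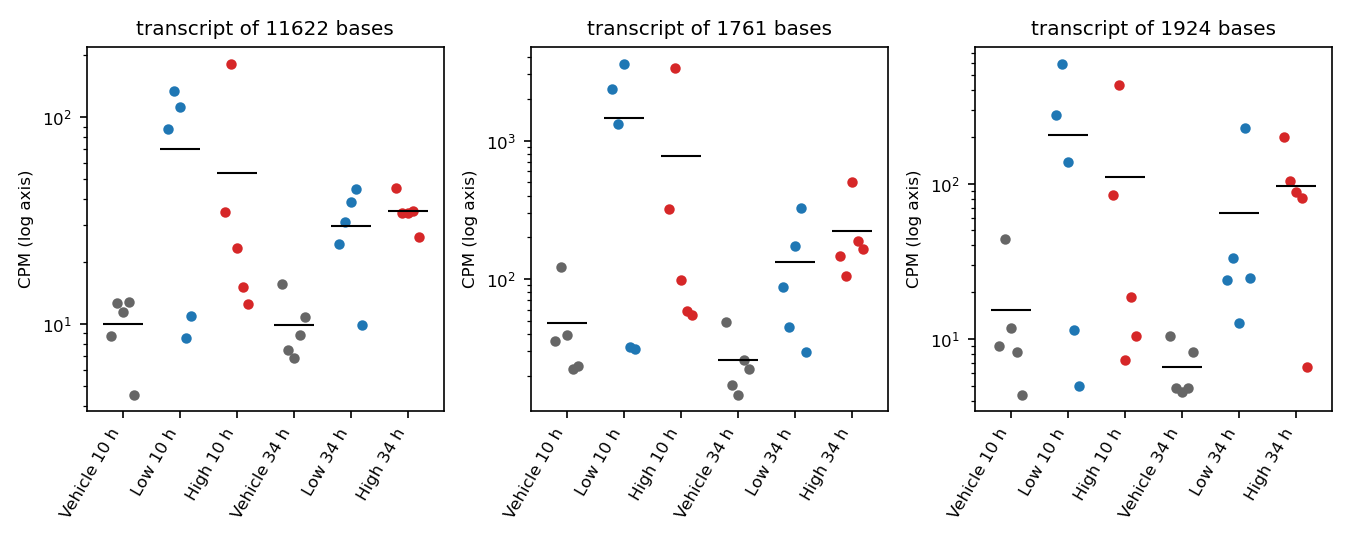
CPM on a log axis of the 3 transcripts over the threshold in at least 8 HgCl2 kidneys of 34 h, 1 point per library by group, with the group mean as a line. At 10 h the HgCl2 kidneys spread widely, from the vehicle range up to 181 CPM for the transcript of 11622 bases, and at 34 h all but 1 to 2 of the 10 lie above the vehicle kidneys.

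The smallest unadjusted p for both doses belonged to a transcript of 4481 bases, chosen for that p, whose groups were separate although its difference was smaller. It was at 93.3, 82.4, 71.5, 61.9 and 82.2 CPM with vehicle at 34 h, at 126, 129, 146, 144 and 105 CPM with the low dose and at 160, 154, 135, 145 and 95.2 CPM with the high dose. Every HgCl2 kidney was above every vehicle kidney. The fitted log2 difference was 0.76 (SE 0.14), with an adjusted p of 0.153 in edgeR and 6.2e-05 in DESeq2. A transcript of 3430 bases, the third in order of p, was at 181 to 188 CPM in the 5 vehicle kidneys, 198 to 246 CPM with the low dose and 223 to 284 CPM with the high dose, again with no overlap, and the fitted log2 difference was 0.37 (SE 0.07, adjusted p 0.153 in edgeR and 5.9e-05 in DESeq2). In all, 6 of the 86 (6.98%) had all 10 HgCl2 kidneys above all 5 vehicle kidneys, against 0.304% of the eligible transcripts.

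Both transcripts named above for 10 h overlapped between the groups at 34 h. ENSRNOT00000083829 was at 2.38, 28.8, 3.49, 3.08 and 16.003 CPM with vehicle at 34 h, at 4.03, 4.12, 43.5, 11.9 and 13.1 CPM with the low dose and at 9.13, 5.46, 24.3, 6.11 and 4.39 CPM with the high dose. The difference for both doses was 0.17 on the log2 scale (SE 0.68, adjusted p 0.950 in edgeR), with its sign turning to -0.28 without low dose replicate 3. ENSRNOT00000052231 was at 0.512 to 14.4 CPM with vehicle, 0.168 to 106 CPM with the low dose and 0.0345 to 9.61 CPM with the high dose. That difference was 0.44 for both doses (SE 1.18, adjusted p 0.925 in edgeR) and -0.86 without low dose replicate 1, the library at 106 CPM.

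The lowest fitted fold changes at 34 h came from transcripts near 0 in many animals. ENSRNOT00000009556, of 2202 bases, reached 459 CPM in high dose replicate 2 of 10 h and was at most 0.000236 CPM in the other 14 libraries of that time. At 34 h it was at 32.9 and 20.01 CPM in vehicle replicates 2 and 5, at 8.47 CPM in high dose replicate 5 and at most 1.55 CPM in the other 12, and the fitted log2 value was -3.88 (SE 1.52, adjusted p 0.465 in edgeR), or -6.96 to -2.77 with 1 library left out. ENSRNOT00000007398, of 6221 bases, was at 0.0285, 8.64, 42.7, 16.03 and 0.00711 CPM with vehicle at 34 h, up to 6.30 CPM with the low dose and up to 7.27 CPM with the high dose. The fitted log2 value was -2.62 (SE 1.30, adjusted p 0.539 in edgeR), and the groups overlapped. It was -3.16 to -1.501 with 1 library left out and -4.55 without high dose replicates 3 and 4. Neither transcript had whole counts, so both values also rest on how reads were divided among related transcripts.

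Among vehicle kidneys the transcripts had no common shift with time: the median log2 difference of the vehicle medians, 34 h minus 10 h, was 0.00 over the 86 and 0.00 over the eligible transcripts. Measured against the vehicle kidneys of 10 h instead, 3 to 7 of the 86 were over 1.5 times their highest value in each vehicle kidney of 34 h, 4 to 23 in each low dose kidney and 8 to 39 in each high dose kidney. The 39 belonged to high dose replicate 3, which stood apart. The eligible transcripts over this limit were not counted, so these numbers have no background beside them.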

How the data were processed

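Members, classes and subsets were chosen with earlier results of these data known. The deposited tables hold, per the file headers, an estimated count and a TPM value for each of 65166 targets, together with the target's length and effective length. The authors made the estimated counts and TPM values with kallisto 0.42.2 on build Rnor_6.0, per the submitters' processing notes; the sources used here give neither options nor annotation release. Genomic intervals were left out. CPM was computed from the transcripts' estimated counts and their sum per library. Rounded counts were tested at 34 h with edgeR 4.0.16 (quasi-likelihood, robust, TMM, filterByExpr over all 30 libraries, 21112 transcripts kept, 86 of the 86 among them), on the groups compared, with Benjamini-Hochberg adjustment and a threshold of 0.05. The SE is the fold change divided by the square root of F. Alternatives were DESeq2 1.42.0, limma 3.58.1 voom, other normalization and filters, and libraries left out; the fit without high dose replicates 3 and 4 and the reference of 4 vehicle kidneys were chosen after seeing the data. Named were the 2 transcripts over the threshold in most HgCl2 libraries of 10 h and the 2 with the lowest fold change at 34 h; others are given by length and were chosen after their values were seen. The test was tried on simulated counts. Planned gene lists and markers were not matched and not tested. Replicates are separate rats, per the labels. Calculations used R 4.3.3 and Python 3.11.15.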

Additional observations from a re-analysis of the deposited data

Results flagged for a closer look

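In 34 groups of 5 values, 14 had a highest or lowest library far from the other 4; chance alone gives about 1 in 20 groups. That rate does not hold for values of 10 h, which served to choose the transcripts, or for medians of vehicle libraries, which are held near 0 by their own reference. Nor does it hold at 34 h for ENSRNOT00000009556 and ENSRNOT00000007398, named for their fold change of that time and near 0 in many libraries. For the median over the 86 transcripts these were vehicle replicate 5 of 10 h (-0.0619), high dose replicate 2 of 10 h (1.59), vehicle replicate 3 of 34 h (-0.0346) and high dose replicate 3 of 34 h (0.74). The same high dose libraries led in the number of the 86 over the threshold of their time, with 68 at 10 h and 40 at 34 h. Both are among the libraries that stood apart over all eligible transcripts. Without the former the rule of 10 h gave 70 transcripts. At 34 h, with high dose replicates 3 and 4 left out, the median log2 fold change for both doses was 0.34, with 69 of the 86 positive. In that fit 44.8% of the eligible transcripts were positive.

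Among the named transcripts, ENSRNOT00000083829 had 1 library apart in vehicle at 10 h (12.6 CPM), low dose at 34 h (43.5 CPM) and high dose at 34 h (24.3 CPM). ENSRNOT00000052231 had 1 in low dose at 34 h (106 CPM). ENSRNOT00000009556 had 1 in high dose at 10 h (459 CPM), low dose at 34 h (1.55 CPM) and high dose at 34 h (8.47 CPM). ENSRNOT00000007398 had 1 in vehicle at 10 h (7.65 CPM).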

How the results depend on the processing

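The count of the 86 called at an adjusted p under 0.05 was 0 in edgeR with the size factors of DESeq2, without a filter and in limma voom. DESeq2 called 13 for the high dose, 14 for the low dose and 12 for both doses, with 4, 18 and 4 of the 86 given no adjusted p. Leaving out 1 library gave 0 to 1 calls for the high dose and for both doses. In 1 fit of all 30 libraries, 15 (high dose) and 14 (low dose) were higher at an unadjusted p under 0.05, in place of 40 and 32. The spread in that fit comes in part from the values of 10 h that chose the transcripts. For high against low dose that count was 0 to 4 with 1 library left out and 0 without high dose replicates 3 and 4.

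The number chosen at 10 h was 338 at 5/4 of the highest vehicle, 42 at 2 times, 177 with at least 2 libraries, 12 with at least 5, 178 from a mean of 1 CPM and 24 with whole counts only. It was 62 to 132 with 1 library left out, the most without vehicle replicate 3. Without vehicle replicate 2, which stood apart, it was 125. These hold all 86 by construction, because leaving out a vehicle library cannot raise the threshold. At 34 h the rule was met by 7 of the 86 at 2 times (0.132% of the eligible) and by 30 at 5/4 (1.51%). Chosen with at least 5 libraries, the transcripts had a median log2 fold change of 0.90 at 34 h.

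ENSRNOT00000083829 ranged from -0.28 to 0.96 with 1 library left out (-0.08, -0.05 and -0.06 without vehicle replicates 1, 3 and 4, -0.28 without low dose replicate 3, -0.12 without high dose replicate 3) and was -0.12 without high dose replicates 3 and 4. ENSRNOT00000052231 was -0.45 in limma voom and -0.86 to 0.83 with 1 library left out, the lowest without low dose replicate 1. The causes were not tested. The run of library numbers could not be fitted for both doses together and was not run there. No paired analysis was possible because the labels give no replicate numbers; those used here only name the animals and tie none across groups. Precision rests on 5 animals a group, and for transcripts near 0 in many libraries, such as ENSRNOT00000009556, the fold change rests on the few libraries with counts.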

Other observations

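Low dose replicate 5 of 10 h was over the threshold for 13 of the 86 transcripts, and 1 of these 13 was among the 46 that were high in the 4 leading kidneys. The 13 were longer than the other 73, with a median of 3560 bases against 2252, and their median of mean TPM was 3.21 against 22.0. Whole counts were found for 1 of these 13 and for 23 of the other 73. Over these 13, the median SD of log2(CPM + 0.5) among the vehicle kidneys of 34 h was 0.58, against 0.24 for the other 73. Their median log2 fold change at 34 h was 0.52 for both doses against vehicle, with 11 of 13 above 0, against 0.37 with 64 of 73 above 0. Of the eligible transcripts 47.3% were above 0, with a median of -0.01. The 13 were picked by a library's values of 10 h after these had been seen, and no test was made of them.

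The transcript with the highest fitted log2 fold change at 34 h, 3.75 (SE 1.32, adjusted p 0.451 in edgeR) over 993 bases, was highest in 1 kidney. It was at 428 CPM in high dose replicate 3, at 39.7 and 26.8 CPM in low dose replicates 3 and 4, and at 2.04 to 3.83 CPM in the vehicle kidneys. The other 7 HgCl2 kidneys were at 2.67 to 7.29 CPM. With the low dose alone its log2 fold change was 2.57 (SE 0.80, adjusted p 0.260 in edgeR and 0.035 in DESeq2). DESeq2 gave it no adjusted p for the high dose or for both doses. Its mean in the vehicle kidneys of 34 h was 2.61 CPM, so it is not among the 78 transcripts at 5 CPM or more there.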
